A study of Disanthus cercidifolius subsp. longipes with 9 samples.

Results

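The ketoacyl-CoA synthases described here were the transcript clusters of Disanthus cercidifolius var. longipes leaves whose leading Swiss-Prot match was a 3-ketoacyl-CoA synthase (KCS). They numbered 20 of the 24385 clusters in the deposited table. Clusters assigned to the KEGG cutin, suberine and wax pathway were left out by the rule, and 4 of the most abundant members had been picked out beforehand for their levels (Cluster-36072.0, Cluster-40181.2, Cluster-23854.0 and Cluster-29098.2). The leaves came from nursery plants raised from stem cuttings and were sequenced as mRNA at 3 stages with 3 libraries each, from young leaves at branch tips (F1), near-mature leaves (F2) and mature leaves (F3). No plant carried a transgene or a treatment, so leaf stage was the factor compared. The sample labels date F1, F2 and F3 to 20, 23 and 26 July, whereas the paper places the stages about a month apart in spring and early summer. Leaves of 3 trees were used, but which tree gave which library was not stated, so the spread between libraries may be partly technical. The table holds clusters that the authors had called different between stages in some comparison. Every member was therefore chosen by the same contrasts that are described here, and the changes below are given as a description without p-values.

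The cuticle of a leaf is built from cutin and from waxes, and the wax molecules are made from very-long-chain fatty acids. These acids are lengthened at the endoplasmic reticulum by the fatty acid elongase, a complex in which each round of growth begins with a KCS. The KCS condenses an acyl-CoA with malonyl-CoA, and a ketoacyl-CoA reductase (KCR), a hydroxyacyl-CoA dehydratase (HCD) and an enoyl-CoA reductase (ECR) then complete the round. In Arabidopsis the KCS is the subunit that sets which chain lengths are made, and different members feed surface waxes, suberin, sphingolipids and other lipids. The epidermis of expanding leaves is the main site of wax synthesis.

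All 20 members carried the KEGG ortholog for the KCS enzyme, and 19 had the Pfam domain of FAE1-type condensing enzymes, as did no other cluster of the table. The exception was Cluster-35830.0, a fragment of 460 bases. The members took 9 Swiss-Prot names, namely KCS1, 2, 4, 5, 6, 10, 11, 12 and 19, which follow the Arabidopsis numbering. Lengths ran between 460 and 2737 bases, and 3 members (460, 630 and 1140 bases) fell short of the 1647 bases or more of the others. The 20 clusters carried 15 cluster numbers, and 9 of them shared a number with another member, so that reads of near-identical transcripts may have been divided among them. Values of single clusters under one number are for that reason uncertain.

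Counts over the table were 8.66 to 14.3 M per library, and 46.5% to 57.1% of the fragments implied by the FPKM scaling lay in the table, with the 3 F3 libraries between 46.5% and 47.4%. Members held 5572 to 89345 counts per library. FPKM is a fragment count normalised by the length of the transcript and by sequencing depth, so levels can be compared between genes. For members with a mean of at least 5 FPKM, the coefficient of variation between libraries of a stage was 0.658% to 9.26% at F1 (14 members), 2.02% to 10.2% at F2 (9 members) and 2.16% to 8.84% at F3 (6 members). Within a stage, any pair of libraries differed beyond counting noise (chi-square per degree of freedom 5.61 to 12.04), and none was merged with another.

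KCS transcripts were most abundant in young leaves. Summed over the 20 clusters, the family reached 2172, 2153 and 2170 FPKM in the F1 libraries, 647, 655 and 630.5 FPKM in the F2 libraries and 128, 130 and 138 FPKM in the F3 libraries. The stages did not overlap, and the spread within a stage was at most 12.7 FPKM (SD, n = 3). The F2 mean of 644 FPKM was 3.36-fold lower than the F1 mean of 2165 FPKM. The F3 mean of 132 FPKM was 4.89-fold lower than the F2 mean and 16.4-fold lower than the F1 mean. Over the same libraries the family took 0.481%, 0.472% and 0.489% of all FPKM in the table at F1, 0.155%, 0.157% and 0.151% at F2, and 0.0389%, 0.0396% and 0.0422% at F3. At F1, 6 members were at 100 FPKM or more, at F2 3 were, and at F3 none was.

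**Figure D1:**
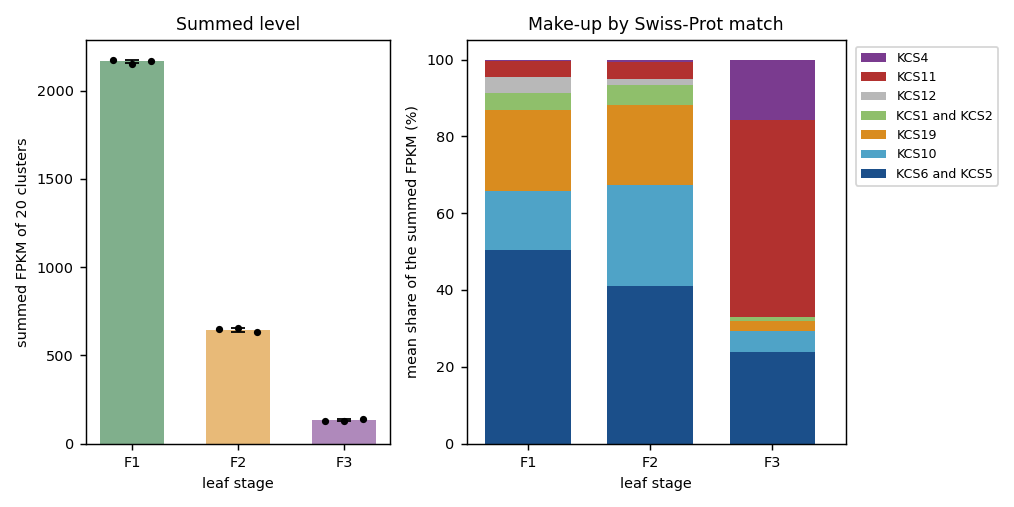
The left panel plots the summed FPKM of the 20 KCS clusters by leaf stage (bars, mean; error bars, SD of 3 libraries; points, libraries), and the right panel the mean share of that sum held by each group of Swiss-Prot matches in percent. The sum was 2165, 644 and 132 FPKM at F1, F2 and F3, and the KCS11 group held 4.25%, 4.34% and 51.3% of it.

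The decline was not shared by all members. Calls required a fold change of 2 or more and an adjusted p (Benjamini-Hochberg, edgeR's quasi-likelihood test) under 0.05. At F2 against F1, 13 of 20 members were called lower, beside 18.8% of all clusters, and 0 were called higher, beside 22.0% of all clusters. At F3 against F1, 17 were called lower and 3 higher, beside 34.7% and 35.0% of all clusters. At F3 against F2, 14 were called lower and 3 higher, beside 35.8% and 29.5% of all clusters. All F3 libraries lay below all F1 libraries for 17 members and above them for 3, beside 38.8% and 42.3% of all clusters. These comparisons share libraries, and 10 members were called in all 3. The median log2 fold change of the members was -1.77 for F2 over F1, -6.65 for F3 over F1 and -3.26 for F3 over F2, against 0.17, 0.00 and -0.37 for all clusters. When a stage held 0 counts, a bound was taken by putting 3 counts in each of its libraries, and with such clusters at their bound, and those at 0 counts in both stages kept at no change, the medians over the 20 members were -1.77, -5.86 and -2.96. On log2(FPKM + 1), a scale that shrinks the changes of scarce clusters, the medians in limma were -1.68, -3.40 and -1.50.

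**Figure D2:**
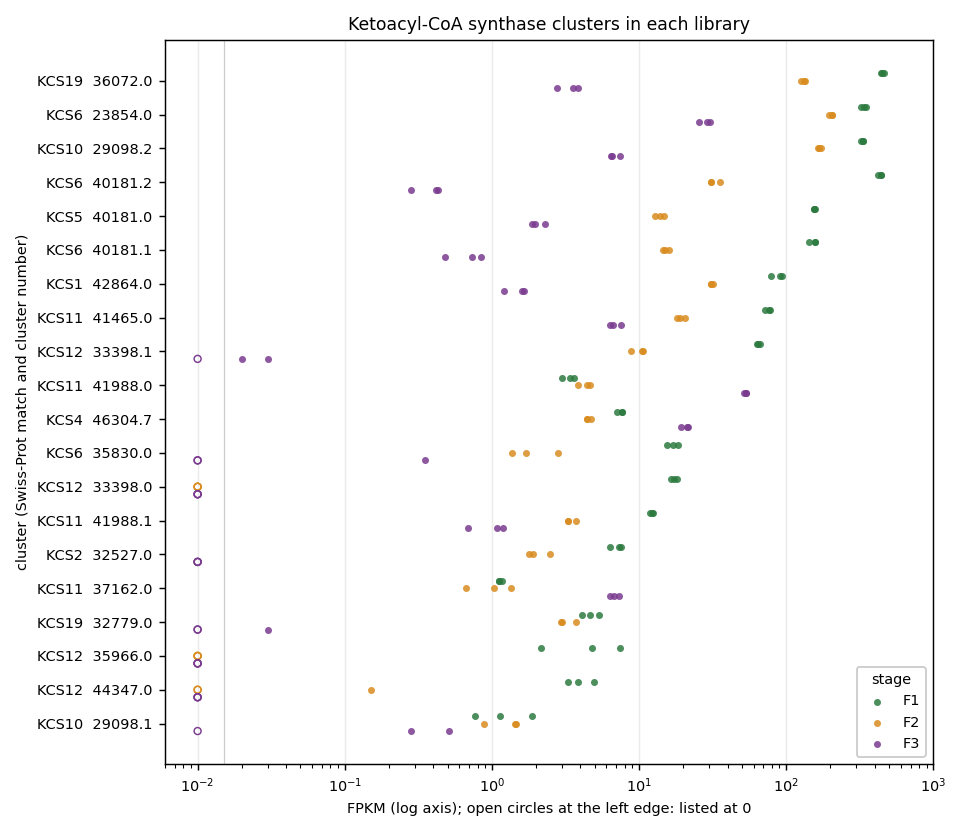
FPKM (log axis) of each KCS cluster in each of the 9 libraries, coloured by stage, with clusters ordered by their mean over all libraries and open circles for libraries listed at 0. In 17 clusters the F3 libraries lie below the F1 libraries, and in Cluster-41988.0, Cluster-46304.7 and Cluster-37162.0 they lie above.

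KCS6 and KCS5 matches formed the largest group of the young leaf, with 1094 ± 8.19 FPKM over 5 clusters at F1, 264.5 ± 2.59 FPKM at F2 and 31.5 ± 2.95 FPKM at F3 (n = 3, SD). In Arabidopsis, KCS6 (CUT1, CER6) makes the longest acyl chains of stem and leaf waxes, and KCS5 (CER60) is its close paralog. Cluster-40181.2, a KCS6 match of 1647 bases, had 439, 423 and 444 FPKM at F1, 30.9, 30.9 and 35.4 FPKM at F2 and 0.28, 0.43 and 0.42 FPKM at F3. On the log2 scale it changed by -3.70 ± 0.09 (standard error) for F2 over F1 and -6.57 ± 0.12 for F3 over F2. Over both steps this amounted to -10.28 ± 0.13, and the cluster ranked 2 of 20 by FPKM at F1 and 12 of 20 at F3.

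Cluster-23854.0, the KCS6 match next in level at F1, kept more of it. It had 335, 346 and 324 FPKM at F1, 205, 204 and 194 FPKM at F2 and 25.5, 29.1 and 30.3 FPKM at F3. Its log2 fold change was -0.69 ± 0.08 for F2 over F1, which was under the 2-fold threshold, and -2.99 ± 0.08 for F3 over F2. The F2 mean was 60.0% of the F1 mean and the F3 mean 8.44% of it, whereas for Cluster-40181.2 these shares were 7.44% and 0.0865%. The ratio of Cluster-40181.2 to Cluster-23854.0 within a library was 1.30 ± 0.08 at F1, 0.162 ± 0.018 at F2 and 0.0132 ± 0.0020 at F3 (n = 3, SD). This pair thus changed places, with Cluster-40181.2 the higher of the pair at F1 and Cluster-23854.0 the higher at F2 and F3 in every library.

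The remaining clusters of this group followed Cluster-40181.2 in losing most of their level by F2. Cluster-40181.0, the KCS5 match, had 154, 156 and 155 FPKM at F1, 12.9, 13.9 and 14.7 FPKM at F2 and 1.87, 2.30 and 1.97 FPKM at F3. Its log2 fold changes were -3.45 ± 0.09 for F2 over F1 and -2.93 ± 0.10 for F3 over F2. Cluster-40181.1, a KCS6 match, had 156, 143 and 156 FPKM at F1, 14.5, 15.02 and 16.1 FPKM at F2 and 0.48, 0.84 and 0.73 FPKM at F3. At F1 the KCS5 match and this cluster overlapped, while at F3 the KCS5 match stood 3.11 ± 0.68-fold above it (SD, n = 3). Cluster-40181.0, Cluster-40181.1 and Cluster-40181.2 together gave 742 ± 17.8 FPKM at F1, 61.4 ± 4.197 FPKM at F2 and 3.11 ± 0.47 FPKM at F3. The fragment Cluster-35830.0 had 15.4, 17.0 and 18.4 FPKM at F1, 2.82, 1.70 and 1.37 FPKM at F2, and 2 counts in all at F3.

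**Figure D3:**
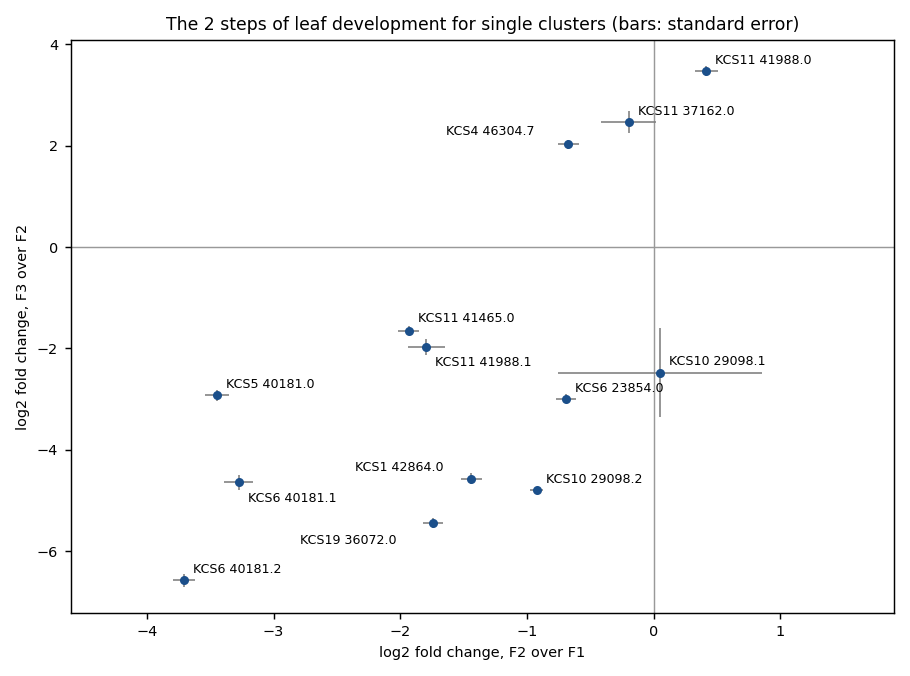
Log2 fold change of F3 over F2 plotted against that of F2 over F1 for the 13 KCS clusters with more than 9 counts in every stage, with bars for the standard error. Cluster-40181.0, Cluster-40181.1 and Cluster-40181.2 lie at the left (-3.27 to -3.70), Cluster-23854.0 and Cluster-29098.2 lie near the vertical zero line and low (-0.69 and -0.92, then -2.99 and -4.79), and 3 clusters lie above the horizontal zero line.

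KCS10 was represented by 1 abundant cluster, Cluster-29098.2. The Arabidopsis protein is known as FIDDLEHEAD, an epidermal enzyme whose loss lets organs fuse. It had 333, 324 and 330.3 FPKM at F1, 168, 172 and 165 FPKM at F2 and 6.47, 6.53 and 7.47 FPKM at F3. Its log2 fold change was -0.92 ± 0.05 for F2 over F1, under the 2-fold threshold, and -4.79 ± 0.06 for F3 over F2. With RLE scaling or DESeq2 the change at F2 over F1 was -1.10 and passed. At F1 and F2 its level ran close to that of Cluster-23854.0, with within-library ratios of 0.983 ± 0.043 and 0.838 ± 0.016, but at F3 the ratio was 0.242 ± 0.015 (SD, n = 3).

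A longer KCS10 match under the same number, Cluster-29098.1, stayed at 0.77 to 1.87 FPKM at F1, 0.89 to 1.45 FPKM at F2 and 0 to 0.51 FPKM at F3. Its log2 fold change at F3 over F1 was -2.42 ± 0.88, and that call was lost without F1 replicate 3 (-2.03), without F3 replicate 3 (-2.58), with these stages fitted alone (-2.44) and with limma on log2(FPKM + 1) (-0.83). Cluster-29098.0, which shares the number but has no Swiss-Prot match and is no member, was at 0 counts in all F1 libraries and at 4.29, 3.57 and 5.23 FPKM at F3. The number as a whole reached 330.4 ± 5.04 FPKM at F1, 169.9 ± 3.57 FPKM at F2 and 11.5 ± 1.45 FPKM at F3.

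KCS19 supplied the cluster with the highest mean FPKM at F1, Cluster-36072.0, whose F1 libraries overlapped with those of Cluster-40181.2. Cluster-36072.0 had 450.0, 460.0 and 443 FPKM at F1, 132, 135 and 126 FPKM at F2 and 3.86, 2.77 and 3.57 FPKM at F3. Its log2 fold changes were -1.74 ± 0.08 for F2 over F1, -5.44 ± 0.10 for F3 over F2 and -7.18 ± 0.10 for F3 over F1. The share of the family sum held by KCS19 matches was alike at F1 and F2, at 21.1% ± 0.5 and 20.8% ± 0.3, and was 2.59% ± 0.45 at F3 (n = 3, SD). The minor KCS19 cluster, Cluster-32779.0, had 4.09 to 5.34 FPKM at F1 and 2.96 to 3.70 FPKM at F2, ranges that did not overlap but differed by less than the 2-fold threshold. At F3 it gave 1 count over the 3 libraries, against 415 counts at F2, a ratio of 445-fold with a 95% counting interval of 79.4 to 17610.0.

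KCS1 and KCS2 matches were lower throughout. In Arabidopsis, KCS1 takes part in wax synthesis and KCS2 (DAISY) in making the chains of suberin in roots. Cluster-42864.0, the KCS1 match, had 90.3, 78.5 and 93.98 FPKM at F1, 30.8, 31.99 and 31.0 FPKM at F2 and 1.64, 1.20 and 1.61 FPKM at F3. Its log2 fold changes were -1.44 ± 0.08 for F2 over F1 and -4.57 ± 0.10 for F3 over F2. Cluster-32527.0, the KCS2 match, had 7.33, 6.36 and 7.51 FPKM at F1 and 2.48, 1.78 and 1.89 FPKM at F2. It was at 0 counts in all F3 libraries, at least 26.2-fold lower than at F2 and at least 85.9-fold lower than at F1, against the floor of 3 counts per library.

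KCS12 matches were transcripts of the young leaf, with 90.8 ± 1.38 FPKM over 4 clusters at F1, 10.04 ± 1.06 FPKM at F2 and 0.0167 ± 0.0153 FPKM at F3 (n = 3, SD). Cluster-33398.1 had 66.3, 64.5 and 63.5 FPKM at F1, 10.7, 10.5 and 8.82 FPKM at F2 and 2 counts in all at F3. For F2 over F1 the log2 fold change was -2.65 ± 0.11, and its F3 counts lay 685-fold below those at F2, with a 95% counting interval of 189 to 5661. The second cluster of that number, Cluster-33398.0, had 16.5, 17.3 and 18.03 FPKM at F1 and was at 0 counts in every F2 and F3 library. It was thus at least 217-fold lower at F2 than at F1. Cluster-35966.0 (630 bases, 2.16 to 7.37 FPKM at F1) was likewise at 0 counts at F2 and F3. Cluster-44347.0 (1140 bases, 3.27 to 4.92 FPKM at F1) gave 4 counts at F2, all of them in 1 library, and 0 at F3.

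KCS11 matches went in different directions. Cluster-41988.0 was the member with the largest gain. It had 3.62, 2.98 and 3.38 FPKM at F1, 3.83, 4.45 and 4.63 FPKM at F2 and 53.5, 51.5 and 53.5 FPKM at F3. Its log2 fold change was 0.41 ± 0.09 for F2 over F1, 3.47 ± 0.09 for F3 over F2 and 3.88 ± 0.09 for F3 over F1. All F3 libraries stood far above those of both earlier stages, while the gap between F2 and F1 was small and did not reach the 2-fold threshold.

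Cluster-37162.0, a KCS11 match of 2529 bases, also gained at the last step. It had 1.11, 1.12 and 1.18 FPKM at F1, 1.03, 1.34 and 0.67 FPKM at F2 and 6.75, 6.37 and 7.36 FPKM at F3. The log2 fold change of F3 over F2 was 2.46 ± 0.22, and its F1 and F2 libraries overlapped. The 2 other KCS11 clusters fell. Cluster-41465.0 had 72.0, 78.2 and 76.2 FPKM at F1, 19.1, 20.4 and 18.2 FPKM at F2 and 6.35, 6.70 and 7.53 FPKM at F3. Its log2 fold changes were -1.93 ± 0.08 for F2 over F1 and -1.65 ± 0.09 for F3 over F2, so its F3 mean remained at 9.09% of the F1 mean.

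Cluster-41988.1 shares its number with Cluster-41988.0 and moved the other way. It had 11.8, 12.5 and 12.3 FPKM at F1, 3.28, 3.72 and 3.30 FPKM at F2 and 1.19, 0.69 and 1.08 FPKM at F3. The ratio of Cluster-41988.0 to Cluster-41988.1 within a library was 0.307, 0.239 and 0.275 at F1, 1.17, 1.20 and 1.40 at F2 and 45.0, 74.7 and 49.6 at F3. Since reads may pass between clusters of a number, the sum is the safer value. It was 15.6 ± 0.27 FPKM at F1, 7.86 ± 0.34 FPKM at F2 and 56.6 ± 1.45 FPKM at F3, and Cluster-41988.2, which has the same number and no Swiss-Prot match, added at most 3.40 FPKM to it. All KCS11 matches together came to 92.1 ± 3.23 FPKM at F1, 28.0 ± 1.70 FPKM at F2 and 67.5 ± 2.11 FPKM at F3, the highest sum of any group at F3.

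KCS4 had a single match, Cluster-46304.7, which was lowest in near-mature leaves. It had 7.62, 7.12 and 7.63 FPKM at F1, 4.45, 4.44 and 4.73 FPKM at F2 and 19.4, 21.1 and 21.6 FPKM at F3. Log2 fold changes were -0.67 ± 0.08 for F2 over F1, 2.02 ± 0.09 for F3 over F2 and 1.35 ± 0.08 for F3 over F1. The ranges of the 3 stages did not overlap.

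The order of the members therefore differed between stages. At F1, Cluster-36072.0 (KCS19) and Cluster-40181.2 (KCS6) stood at the top with overlapping libraries, followed by Cluster-23854.0 (KCS6) and Cluster-29098.2 (KCS10), which also overlapped. These 4 clusters held 71.6% of the family sum at F1. At F2 the order was Cluster-23854.0, Cluster-29098.2, Cluster-36072.0 and then Cluster-40181.2, and the first 3 were separated from each other in every library, while Cluster-40181.2 overlapped with the KCS1 match. The same 4 clusters held 82.7% at F2.

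At F3 the list was headed by Cluster-41988.0 (KCS11) with 40.1% of the family sum, followed by Cluster-23854.0 with 21.5% and Cluster-46304.7 (KCS4) with 15.7%, each apart from the next. Cluster-41465.0, Cluster-37162.0 and Cluster-29098.2 came next, at 5.21%, 5.18% and 5.18%, and overlapped in turn. The 4 leading clusters of F1 held 29.5% at F3. The 3 clusters that gained held 61.0% of the sum at F3, against 0.551% at F1, although their summed level was only 80.4 FPKM at F3, against 11.9 FPKM at F1. By group, KCS6 and KCS5 matches took 50.5%, 41.1% and 23.9% of the sum at F1, F2 and F3, and KCS10 matches took 15.3%, 26.3% and 5.37%.

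The partner enzymes of the elongase were mostly called lower at F3 against F1. The 15 clusters that matched KCR, HCD or ECR carried only 6 cluster numbers, with the 5 ECR matches under 1 number. Some transcripts may thus be counted more than once. Among the 15, 7 were called lower and 1 higher at F2 against F1 and 14 lower and 0 higher at F3 against F1. At F3 against F2, 6 were called lower and 0 higher. In the same comparisons 18.8%, 34.7% and 35.8% of all clusters were called lower and 22.0%, 35.0% and 29.5% higher, so the share of partners called lower at F3 against F2 was near that of the table. Their median log2 fold changes were -1.19 for F2 over F1 and -2.55 for F3 over F1. Cluster-44822.0, the main KCR match, averaged 183, 47.6 and 34.0 FPKM at F1, F2 and F3. Cluster-5042.70, the main HCD match, averaged 60.7, 8.50 and 5.69 FPKM. The main ECR match, Cluster-57094.2, averaged 107, 27.3 and 41.5 FPKM, and its F3 value was 0.44 ± 0.06 above F2 on the log2 scale, within the 2-fold threshold. Summed over the list, the partners stood at 91.7 ± 2.44 FPKM at F3, against 415 ± 9.42 FPKM at F1, a smaller relative loss than the KCS sum showed between the same stages (difference not tested).

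**Figure D4:**
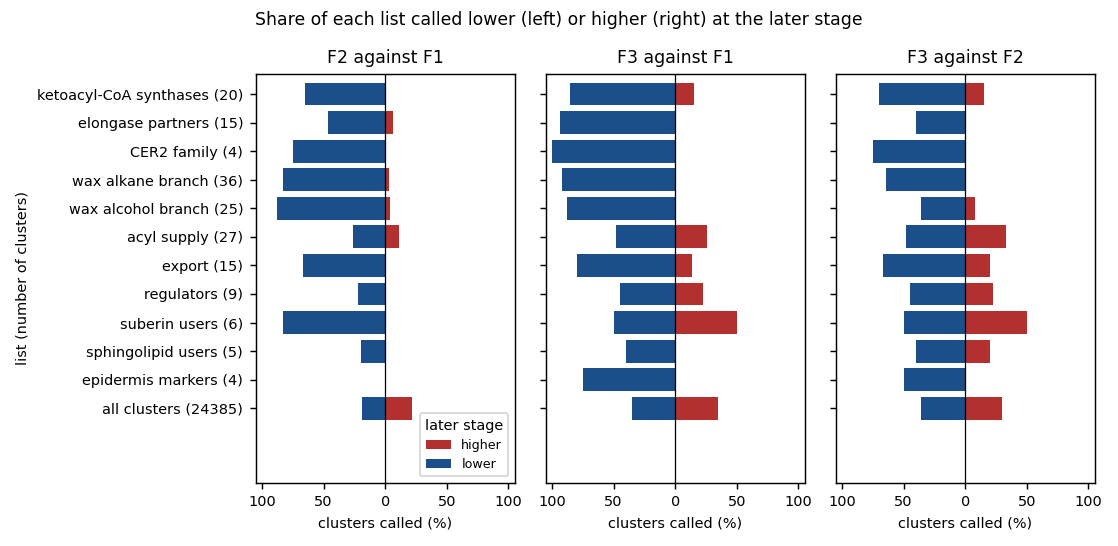
Share of clusters called lower (bars to the left) or higher (bars to the right) at the later stage, in percent of each list, for the 3 comparisons, with the number of clusters in brackets and all clusters of the table at the bottom. The KCS, CER2 and wax branch lists are called mostly lower at F3 against F1 (17 of 20, 4 of 4, 33 of 36 and 22 of 25 clusters), beside 34.7% of all clusters.

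ECERIFERUM 2 proteins extend the chain length that a KCS6-type enzyme can make in Arabidopsis. The 2 matches of ECERIFERUM 2 and the 2 of the related ECERIFERUM 26 proteins were all called lower at F3 against F1, beside 34.7% of all clusters. The leading one, Cluster-37602.0, an ECERIFERUM 2 match, had 246, 263 and 245 FPKM at F1, 52.3, 51.6 and 50.9 FPKM at F2 and 0.53, 1.15 and 0.67 FPKM at F3. Its log2 fold changes were -2.22 ± 0.14 for F2 over F1 and -6.14 ± 0.20 for F3 over F2. The CER2 match was thus nearly lost at F3, as was Cluster-40181.2, while the KCS6 match Cluster-23854.0 was still at 28.3 ± 2.503 FPKM (SD, n = 3).

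Downstream of elongation, the alkane branch turns very-long-chain acyl-CoA into alkanes with CER1 and CER3 and oxidises them with the alkane hydroxylase MAH1. Its 36 clusters, which include matches of related GL1-type enzymes, carried only 13 cluster numbers, so some transcripts may be counted more than once. At F2 against F1, 30 were called lower and 1 higher, beside 18.8% and 22.0% of all clusters. At F3 against F1, 33 were called lower and 0 higher, beside 34.7% and 35.0% of all clusters. The main CER1 match, Cluster-48206.4, had 271, 271 and 277 FPKM at F1, 1.02, 0.94 and 0.80 FPKM at F2 and 0.04, 0.34 and 0.06 FPKM at F3. The change at F2 over F1, -8.18 ± 0.29 on the log2 scale, was larger than that of any KCS cluster with more than 9 counts at F2 (difference not tested). The main CER3 match, Cluster-58632.0, averaged 179.6, 84.96 and 13.5 FPKM. An exception was Cluster-31320.4, a MAH1 match at 155, 75.2 and 124 FPKM, whose difference at F3 over F1 (-0.53 ± 0.10) stayed under the threshold.

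The alcohol branch makes primary alcohols and wax esters with acyl-CoA reductases and wax ester synthases. Its 25 clusters carried 9 cluster numbers. At F2 against F1, 22 were called lower and 1 higher, beside 18.8% and 22.0% of all clusters. At F3 against F1, 22 were called lower and 0 higher, beside 34.7% and 35.0% of all clusters. At F3 against F2, 9 were called lower and 2 higher, beside 35.8% and 29.5% of all clusters. The summed level was 41.3 ± 2.46 FPKM at F3, against 19.8 ± 1.39 FPKM at F2 (n = 3, SD). That rise came from the 2 clusters called higher, Cluster-57135.2 and Cluster-57135.1, which share 1 number. They averaged 29.5 and 9.35 FPKM at F3, against 4.68 and 0.830 FPKM at F2. Cluster-57135.0, a wax ester synthase match, averaged 74.6 FPKM at F1 and 0.913 FPKM at F2 and was at 0 counts at F3, at least 919-fold lower than at F1. Cluster-57135.2, under the same number, averaged 38.4, 4.68 and 29.5 FPKM, so the cluster number as such did not follow one course.

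Enzymes that supply acyl chains were called in both directions. Among 27 acyl supply clusters (acyl-CoA synthetases, plastid acetyl-CoA carboxylase subunits, ketoacyl-ACP synthases and thioesterases), 13 were called lower and 7 higher at F3 against F1, beside 34.7% and 35.0% of all clusters. The LACS1 match Cluster-55089.4, whose Arabidopsis counterpart activates very-long-chain acids for wax, averaged 57.1, 10.9 and 0.150 FPKM at F1, F2 and F3, whereas the LACS8 match Cluster-35633.1 had 34.3, 35.9 and 36.4 FPKM at F1, 38.8, 41.96 and 34.5 FPKM at F2 and 93.1, 92.7 and 99.2 FPKM at F3. Among 15 export clusters (ABCG transporters and GPI-anchored lipid transfer proteins), 12 were called lower and 2 higher at F3 against F1, beside these same shares of all clusters (34.7% and 35.0%). The main lipid transfer protein match, Cluster-44515.1, averaged 210.0, 31.3 and 19.2 FPKM. Among 9 clusters of wax regulators, of which 7 matched the ubiquitin ligase SUD1, 4 were called lower and 2 higher at F3 against F1. These counts stand beside 34.7% and 35.0% of all clusters. The regulators summed to a mean of 57.06 FPKM at F1, 33.71 FPKM at F2 and 52.6 FPKM at F3. The most abundant, the SUD1 match Cluster-40813.0, averaged 19.64, 14.79 and 37.02 FPKM at F1, F2 and F3. It was called higher at F3 against F2, but its rise at F3 over F1 (0.79 on the log2 scale) stayed under the threshold. At F3 against F2, 4 regulators were called lower and 2 higher. MYB106 (Cluster-54091.0), an activator of cuticle genes in Arabidopsis, fell and averaged 13.6, 4.78 and 0.273 FPKM.

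Over the 7 wax pathway lists together, which leave out the KCS members (131 clusters under 67 numbers), 81 were called lower and 6 higher at F2 against F1, 102 lower and 11 higher at F3 against F1, and 68 lower and 16 higher at F3 against F2. The share of all clusters called lower was 18.8%, 34.7% and 35.8% in these comparisons, and the share called higher 22.0%, 35.0% and 29.5%.

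Suberin and sphingolipids also use very-long-chain acids. Among 6 suberin clusters, 5 were called lower and 0 higher at F2 against F1, beside 18.8% and 22.0% of all clusters. At F3 against F1, 3 were called lower and 3 higher, beside 34.7% and 35.0% of all clusters. Their summed level was 246 ± 6.55 FPKM at F1, 168 ± 6.74 FPKM at F2 and 23.6 ± 5.26 FPKM at F3 (SD, n = 3). Most of the F2 and F3 sums came from Cluster-58065.0, a fragment of 235 bases. It averaged 93.2, 113.6 and 19.2 FPKM at F1, F2 and F3, from only 110, 155 and 25 counts, so these sums are uncertain. A cluster called higher, Cluster-33612.0, averaged only 0.350 FPKM at F1 and 1.68 FPKM at F3. Cluster-35359.0, a match of CYP86B1, which oxidises very-long-chain acids for suberin in Arabidopsis, averaged 93.6, 32.03 and 0.0233 FPKM. Among 5 sphingolipid clusters, which use such acids in ceramides, 2 were called lower and 0 higher at F3 against F1, a share called lower near the 34.7% of all clusters, and the ceramide synthase match Cluster-43330.0 averaged 21.7, 10.6 and 12.1 FPKM.

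Markers of leaf cell types changed over the same stages. The leaves were extracted whole, so fewer cells of a type and less RNA per cell cannot be told apart. Of all clusters, 18.8% were called lower and 22.0% higher at F2 against F1, and 34.7% and 35.0% at F3 against F1. Of 4 epidermal homeobox clusters (matches of ANTHOCYANINLESS 2, PROTODERMAL FACTOR 2, HDG11 and HDG2), 0 were called at F2 against F1 and 3 were called lower at F3 against F1. Their summed level was 12.7 to 15.97 FPKM at F1, 9.92 to 10.8 FPKM at F2 and 5.19 to 5.74 FPKM at F3, and none was at 0 counts in a stage. Their median log2 fold change at F3 over F1 was -2.11, beside -6.65 for the KCS members, or -5.86 with KCS clusters at 0 counts put at their bound. The difference was not tested. It rests on scarce epidermal clusters, of which the HDG2 match Cluster-40553.3 averaged 0.530 FPKM at F1 and 0.140 FPKM at F3. Clusters linked to stomatal development were matches of FAMA and of EPIDERMAL PATTERNING FACTOR-like proteins. They summed to 45.2 to 48.9 FPKM at F1, 21.0 to 22.0 FPKM at F2 and 4.68 to 6.62 FPKM at F3. Of these, 6 of 7 were called lower and 1 higher at F3 against F1. The EPIDERMAL PATTERNING FACTOR-like protein 9 match, Cluster-34476.0, was the largest part at F1 (26.0 FPKM), so the sum is not a measure of guard cells. The FAMA match averaged 9.97, 6.39 and 0.173 FPKM at F1, F2 and F3. Trichome clusters (2 matches of GLABRA 3) summed to 7.37 to 10.01 FPKM at F1, 4.76 to 5.30 FPKM at F2 and 2.36 to 2.81 FPKM at F3, both called lower at F3 against F1.

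Dividing-cell and xylem clusters were also mostly called lower at F3 against F1. Over the table, 34.7% of clusters were called lower and 35.0% higher at F3 against F1. Dividing-cell clusters (cyclins and a cyclin-dependent kinase) summed to 64.9 to 70.9 FPKM at F1, 11.8 to 12.8 FPKM at F2 and 16.3 to 18.8 FPKM at F3. Of these, 15 of 18 were called lower and 1 higher at F3 against F1, with 3 at 0 counts at F3. At F3 against F2, 7 were called lower and 3 higher, beside 35.8% and 29.5% of all clusters. The higher sum at F3 than at F2 came from the Cyclin-D3-3 match Cluster-36398.0, which averaged 8.29, 1.53 and 8.05 FPKM at F1, F2 and F3. Xylem clusters summed to 34.3 to 40.5 FPKM at F1, 13.4 to 17.8 FPKM at F2 and 0.71 to 1.08 FPKM at F3, and 6 of 6 were called lower at F3 against F1, with 2 at 0 counts at F3. Senescence clusters mostly went the other way, with summed levels of 48.3 to 50.8 FPKM at F1, 127 to 137 FPKM at F2 and 278 to 299.6 FPKM at F3. Of these, 5 of 7 were called higher and 1 lower at F3 against F1. The SAG12 match Cluster-14907.1 did not follow the sum and averaged 3.31, 29.35 and 3.77 FPKM at F1, F2 and F3. The part of these tissue changes in the KCS levels was not tested.

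The clusters whose course was nearest to that of the leading member, Cluster-36072.0, were sought among 4574 others with a Swiss-Prot match and at least 10 FPKM in a stage. Likeness was the root mean square difference of centred log2(FPKM + 1) over the 9 libraries. The nearest was Cluster-13740.2, a match of an UPF0481 protein (difference 0.147), with 107, 108 and 103 FPKM at F1, 27.2, 25.5 and 23.2 FPKM at F2 and 0 counts at F3. Next came the CYP86B1 match Cluster-35359.0 (0.159), a STRICTOSIDINE SYNTHASE-LIKE 2 match, Cluster-54043.2 (0.250), a proline-rich protein DC2.15 match, Cluster-39999.0 (0.294), and the MAH1 match Cluster-33610.11 (0.294). The last averaged 190.1, 81.0 and 1.73 FPKM at F1, F2 and F3. These likenesses describe 9 libraries of 3 stages, on a scale that shrinks differences among scarce values. At F3 the 2 nearest clusters averaged 0 and 0.0233 FPKM, beside 3.40 FPKM for Cluster-36072.0. From F1 to F3, Cluster-13740.2 fell at least 1868-fold against the floor of 3 counts per library, and Cluster-36072.0 fell 145-fold.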

How the data were processed

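Leaf mRNA of 3 stages was measured in 9 libraries. The authors deposited 1 table of 24385 clusters with raw fragment counts per cluster and library. The deposited FPKM values are the authors' counts normalised by cluster length and sequencing depth. The authors' cluster length, which is neither a count nor a level, came with the table. Columns of the authors' DESeq2 comparisons (fold changes, p-values, calls) were not used. Assembler, aligner and counter were not given in the sources used here. A mouse genome build is named in the labels, and the labels and the paper name different library kits.

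Counts were fitted with edgeR 4.0.16 in R 4.3.3 (quasi-likelihood, TMM, stage as factor, all libraries, no filter), and adjusted over all clusters. SE is the fitted standard error. Alternatives were DESeq2 1.42.0, limma 3.58.1 on log2(FPKM + 1) and log2(FPKM + 0.1), RLE scaling, library sizes implied by FPKM, low-level filters, 2 stages alone, a replicate block, no fold threshold, summed numbers and each library left out. Python 3.11.15 did the rest. Simulated F2 against F1 data over 24385 clusters gave back 30 of 100 clusters changed 2.5-fold and 43 of 100 changed 4-fold, so differences of these sizes can be missed. Median fitted log2 changes were 1.31 and 2.00, with no wrong sign among the clusters given back. In the measured data 9955 clusters were called in that comparison, many more than were changed in the simulation, so the recovered shares need not carry over. Folds against a stage at 0 assume 3 counts in each library, intervals are exact (95%), and both cover counting error only.

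All members were named, with values per library where a stage reached a mean of 5 FPKM. Of each other list, up to 4 of the most abundant clusters could be named. Members, lists and rules were chosen with earlier results of these data known. Clusters outside the table were not analysed here.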

Additional observations from a re-analysis of the deposited data

How the results depend on the processing

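Under every alternative the KCS calls stayed within 1.5 times of 13, 20 and 17 for F2 against F1, F3 against F1 and F3 against F2. Summed by number, 9, 15 and 13 of 15 were called. Leaving out single libraries gave 13, 19 to 20 and 16 to 17. The wax lists (87, 113 and 84 calls) gave 45, 55 and 43 of 67 when clusters of a number were summed, since fewer features are counted, and 53 for F3 against F2 with limma on log2(FPKM + 1). That test called 5928 clusters of the table for F2 against F1, against 9955 in edgeR, and 10201 for F3 against F2, against 15923. The ratio of summed KCS levels was 0.316 for F2 over F1 and 0.0650 for F3 over F1 with TMM-scaled CPM, against 0.298 and 0.0608 in FPKM. Without Cluster-40181.0, Cluster-40181.1 and Cluster-40181.2, an alternative chosen after seeing the data, the ratios were 0.410 and 0.0904, and 0.221 against 0.204 for F3 over F2. Leaving out single libraries kept the ratios at 0.295 to 0.301, 0.0595 to 0.0618 and 0.200 to 0.208.

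Changes of direction touched 1 uncalled value. Cluster-29098.1 at F2 over F1 (0.05) was -0.10 with DESeq2 and with RLE scaling and -0.19 to 0.45 without single libraries. RLE scaling moved the median of all clusters by -0.17 for F2 over F1 and 0.18 for F3 over F2. Of 1026 recomputed member values, 1009 kept direction and side of the threshold, 9 lost a call and 2 gained one. All 9 were of Cluster-29098.1, whose change at F3 over F2 was not called without F2 replicate 1 (-2.36), F2 replicate 3 (-2.37) or F3 replicate 3 (-2.58), with these stages alone (-2.31) or with limma on log2(FPKM + 1) (-0.85). That limma test also gave KCS medians of -3.40 for F3 over F1 and -1.50 for F3 over F2, against -6.65 and -3.26 in edgeR. Same-numbered libraries of different stages showed no shared deviation (correlations -0.019 to 0.034 over 9 pairs). This cannot tell whether a number marks a tree, since a tree effect may be too small to show. With the replicate block 13, 20 and 17 KCS clusters were called, as without it. Scarce clusters rest on few counts, and single values under a shared number are limited by how reads were assigned.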

Other observations

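The KEGG annotation of the table assigned the KCS ortholog to 29 clusters, of which 9 had another Swiss-Prot match or none. Of these, 6 matched RADIALIS-type proteins, which are small MYB-related transcription factors, and the others matched NAR1, a dynamin-related protein or nothing. The 6 RADIALIS-type clusters summed to 159.6 to 198 FPKM at F1, 339.7 to 361 FPKM at F2 and 119 to 124 FPKM at F3. At F2 against F1, 2 of them were called higher and 0 lower, beside 22.0% and 18.8% of all clusters. The most abundant, Cluster-34283.0, a RADIALIS-like 1 match, had 40.4, 46.5 and 37.4 FPKM at F1, 149, 145 and 143 FPKM at F2, and 13.9, 15.2 and 12.3 FPKM at F3.

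A list of fatty acid elongation taken from the KEGG column therefore mixes both kinds of cluster. Its 52 clusters had a median log2 fold change of -1.10 for F2 over F1 and -3.02 for F3 over F1. Without the KCS members the 32 others had medians of -0.64 and -1.64.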
